A study of Homo sapiens with 9 samples.

Results

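The genes described here are the ephrins, netrins and slits and the receptors that read them, taken as 39 gene symbols of the 27111 genes in the deposited tables. They comprised 16 ligands, namely 5 ephrin-A genes, 3 ephrin-B genes, 5 netrins and 3 slits, and 23 receptors, namely 9 EphA, 5 EphB, 4 ROBO and 5 netrin receptors (DCC and UNC5A to UNC5D). PC3 (PC-3 in the labels) is a human prostate cancer line derived from a bone metastasis. The study infected it with lentiviral particles that carried no insert (Empty) or the murine coding sequence of NF-YAl or NF-YAs, the long and the short splice form of NF-YA. NF-YA is the subunit through which the trimeric transcription factor NF-Y binds DNA, and NF-YAs lacks an exon that NF-YAl contains. RNA was sequenced from multicellular tumor spheroids (MTSs) of stably infected cells, pooled within each library, in 3 libraries per group. Labels letter the replicates A to C, with a D in place of C for NF-YAl. Each group is 1 infected line, so a property of that line and an effect of its construct cannot be told apart, and reads of the murine transgenes may count on the human NFYA gene.

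Ephrins are membrane-bound ligands of the Eph receptors, the largest family of receptor tyrosine kinases, and contact between cells sends signals into both of them. Ephrin-A ligands are held by a lipid anchor and mostly bind EphA receptors, whereas ephrin-B ligands cross the membrane and mostly bind EphB receptors. Most netrins and the slits are secreted guidance cues of growing axons. Netrins attract through DCC and repel through UNC5 receptors, and slits repel through ROBO receptors. Epithelial and endothelial cells use the same systems for cell sorting, boundary formation and migration.

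Libraries held 18076934 to 27163943 rounded expected counts, the read estimates of the RSEM program. NFYA was at 91.8 ± 4.24 CPM (counts scaled to a common library size) in Empty, 341 ± 49.3 CPM in NF-YAl and 261 ± 5.71 CPM in NF-YAs (SD, n = 3), higher in both NF-YA lines as labelled, which does not show which splice form a library carries. NF-YAl library D stood apart, since its 10 most abundant genes took 18.9% of all TPM (RSEM's length-corrected abundance) against 38.3 to 49.6% in the other 8 libraries. The median TPM of tested genes was 13.5 in this library and 6.82 to 9.41 elsewhere. TPM values, used below to compare levels between genes because they account for length, were therefore raised throughout that library, whereas CPM scaled by TMM (a scaling by the bulk of genes) were used to compare groups. Among markers of epithelium, KRT19 led with a mean of 506 TPM in Empty, 389 TPM in NF-YAl and 330 TPM in NF-YAs, while EPCAM was under 1 TPM in Empty, CLDN7 in both NF-YA lines and CDH1 in NF-YAs. Of the prostate luminal markers, KLK3 was under 1 TPM in all groups.

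NF-Y binds the CCAAT box. To show the promoters of the genes with the clearest changes, RefSeq windows of 250 bases before and 50 bases after the gene start, built on GRCh38.p14, were read for EPHA5, EPHA7 and SLIT2, which with EFNB3 had the smallest adjusted p among the members. Each window matched GRCh37, the build of the files, at 1 place, in EPHA5 at chr4:66536158-66536457 on the minus strand, in EPHA7 at chr6:94129228-94129527 on the minus strand and in SLIT2 at chr4:20253278-20253577 on the plus strand. Capitals mark CCAAT on either strand, which reads ATTGG where the box lies on the other strand.
EPHA5: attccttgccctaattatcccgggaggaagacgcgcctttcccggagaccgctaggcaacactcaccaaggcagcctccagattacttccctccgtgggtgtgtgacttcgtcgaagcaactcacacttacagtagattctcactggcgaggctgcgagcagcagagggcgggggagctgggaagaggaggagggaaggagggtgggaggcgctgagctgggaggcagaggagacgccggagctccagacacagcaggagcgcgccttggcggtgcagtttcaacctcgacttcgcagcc
EPHA7: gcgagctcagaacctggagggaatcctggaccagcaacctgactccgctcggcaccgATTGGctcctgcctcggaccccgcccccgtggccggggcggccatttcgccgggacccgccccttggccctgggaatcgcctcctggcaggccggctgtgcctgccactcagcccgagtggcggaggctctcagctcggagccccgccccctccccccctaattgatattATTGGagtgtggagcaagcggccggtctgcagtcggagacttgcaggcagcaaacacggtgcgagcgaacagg
SLIT2: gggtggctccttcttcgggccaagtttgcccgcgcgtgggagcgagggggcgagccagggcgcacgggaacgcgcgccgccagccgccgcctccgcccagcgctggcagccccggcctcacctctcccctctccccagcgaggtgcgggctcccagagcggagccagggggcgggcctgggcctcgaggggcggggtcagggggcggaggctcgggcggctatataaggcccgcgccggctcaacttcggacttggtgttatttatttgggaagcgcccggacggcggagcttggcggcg
The EPHA7 window held 2 boxes, both on the other strand and starting at -193 and -23 from the gene start, and the windows of EPHA5 and SLIT2 held none. EPHA7 has 3 listed starts and EPHA5 has 2, and the most upstream was taken. Over any listed start, 14 of the 32 members with an entry had the box (43.8%), against 39.7% of 27305 genes, and 34.6% of all 35116 windows held it. It was present in 6 of the 15 members called in at least 1 comparison and in 8 of the 17 others. The match is of letters only, and binding was not measured here.

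In Empty MTSs the levels of the guidance genes differed widely. Here 11 members had a mean of at least 10 TPM, 9 a mean of 1 to 10 TPM and 19 a mean under 1 TPM. EPHA2, a receptor widely expressed in epithelial tumors, led at 148 ± 22.8 TPM, followed by the ephrin-B ligand EFNB1 at 90.3 ± 12.8, the basement membrane netrin NTN4 at 77.3 ± 10.3 and EPHB4 at 51.3 ± 6.27 (SD, n = 3). The libraries of EFNB1 and NTN4 overlapped. SLIT2 (34.3 ± 4.78 TPM), EPHB3 (29.0 ± 5.66) and EPHB6 (25.0 ± 3.76) came next. The EPHB3 libraries overlapped those of SLIT2 and of EPHB6, while every SLIT2 library lay above those of EPHB6. EFNA1, EFNA4, ROBO1 and EPHA10 closed the upper class at 19.4 ± 0.563, 13.7 ± 1.73, 11.8 ± 1.92 and 10.9 ± 4.47 TPM. DCC, the receptor through which netrin-1 attracts, was at 0.11, 0.02 and 0.04 TPM in the Empty libraries, and NTN1 itself at 0.34 to 0.60 TPM. The number of members under 1 TPM was 14 in NF-YAl and 14 in NF-YAs. EPHA8, EPHB1, EFNA2 and UNC5B were too low to test. Over the 9 libraries EPHA8 had at most 3 counts, EFNA2 at most 1 and UNC5B at most 4, and EPHB1 had 0, 1 and 0 counts in Empty, 4, 4 and 1 counts in NF-YAl and 5, 2 and 8 counts in NF-YAs.

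The 35 other members were tested with all 17108 genes that passed the filter on low counts, in a single edgeR quasi-likelihood fit of the 3 groups. A gene was called when its Benjamini-Hochberg adjusted p was under 0.01 and its log2 fold change (log2FC) was above 1 or below -1. In NF-YAl against Empty, 7 members rose (EPHA5, EPHA6, EPHA7, EPHB2, EFNB3, NTNG1 and SLIT1) and 2 fell (EFNB1 and ROBO2), where 4.76% of all tested genes rose and 3.50% fell. In NF-YAs against Empty, 11 members rose and 5 fell, against 5.44% and 3.90% of all tested genes. The 7 that rose and the 2 that fell in NF-YAl were also called in NF-YAs, in the same direction, and both comparisons use the same Empty libraries. How many of all genes called in NF-YAl were also called in NF-YAs was not counted. The overlap is therefore not shown to be particular to these genes. EPHA4, EPHB6, EFNB2 and UNC5C rose and EFNA1, EFNA3 and SLIT2 fell in NF-YAs while not being called in NF-YAl. In all, 16 members were called at least once and 19 tested members never. In every call the libraries of the 2 groups did not overlap in CPM. The median log2FC of the tested members was 0.24 in NF-YAl and 0.52 in NF-YAs, beside 0.011 and -0.0026 over all tested genes. Without NF-YAs library C, 7 members instead of 11 rose in NF-YAs. With limma on log2(TPM + 0.5), 15 of the 28 calls over the 3 comparisons were kept. Those lost were EFNB1 and ROBO2 in both lines, EPHA6 and SLIT1 in NF-YAl, EFNA1, EFNA3, EFNB2, EPHB2 and UNC5C in NF-YAs, and EPHB6 and SLIT1 between the lines. By role, 4 of 20 tested receptors rose and 1 fell in NF-YAl, and 7 rose and 1 fell in NF-YAs. Of the 15 tested ligands, 3 rose and 1 fell in NF-YAl, and 4 rose and 4 fell in NF-YAs. NTNG1, counted among the ligands that rose in both lines, does not bind the netrin receptors counted here. As in any bulk RNA, fewer cells of a kind and less RNA per cell cannot be told apart.

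Of the 8 tested EphA receptors, which read ephrin-A ligands, 3 rose in NF-YAl, 4 rose in NF-YAs and 0 fell, where 4.76% and 5.44% of all tested genes rose. EPHA5, a receptor best known from axon mapping, was at 4.78, 4.77 and 4.72 CPM in Empty, 33.2, 23.2 and 22.7 CPM in NF-YAl, and 19.0, 23.2 and 24.5 CPM in NF-YAs. The Empty libraries lay close together, and the 6 NF-YA libraries lay far above them. Its log2FC was 2.46 for NF-YAl (SE 0.17, adjusted p = 1.68e-06) and 2.22 for NF-YAs (SE 0.17, adjusted p = 2.82e-06). EPHA7, a receptor of the same subclass, was at 2.56, 2.74 and 4.25 CPM in Empty, 33.1, 23.6 and 19.3 CPM in NF-YAl, and 10.8, 9.06 and 9.86 CPM in NF-YAs. The 3 groups were fully separate, with NF-YAl the highest. The log2FC was 2.98 (SE 0.23, adjusted p = 3.78e-06) and 1.63 (SE 0.24, adjusted p = 0.000225), respectively. Of its 3 listed starts, only the window shown above held a CCAAT box.

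EPHA6 was at 4.15, 5.09 and 3.90 CPM in Empty, 12.1, 9.53 and 7.52 CPM in NF-YAl, and 10.8, 10.4 and 9.58 CPM in NF-YAs. Both NF-YA lines lay above Empty and overlapped each other. Its log2FC was 1.15 for NF-YAl (SE 0.19, adjusted p = 0.000679) and 1.23 for NF-YAs (SE 0.19, adjusted p = 0.000373). The call in NF-YAl was lost without NF-YAl library A (log2FC 0.96) and with an offset for effective length (log2FC 0.90). EPHA4, a receptor that binds ephrins of both classes, was at 10.5, 11.4 and 12.9 CPM in Empty, 23.7, 18.2 and 12.8 CPM in NF-YAl, and 21.0, 24.3 and 27.6 CPM in NF-YAs. NF-YAl spread from the Empty level up into the NF-YAs range. EPHA4 was called in NF-YAs (log2FC 1.07, SE 0.20, adjusted p = 0.00128), although not without NF-YAs library C (log2FC 0.96), and had a log2FC of 0.65 in NF-YAl (adjusted p = 0.0254).

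The remaining 4 tested EphA genes were not called in any comparison. EPHA2 was at 494, 531 and 489 CPM in Empty, 242, 413 and 456 CPM in NF-YAl, and 568, 604 and 562 CPM in NF-YAs, and its log2FC was -0.45 (SE 0.18, adjusted p = 0.0773) and 0.20 (SE 0.18, adjusted p = 0.428). The most abundant Eph receptor was thus not called in either line. EPHA10, which lacks an active kinase, was at 15.5 to 24.1 CPM in Empty, 18.9 to 27.6 CPM in NF-YAl and 12.9 to 15.0 CPM in NF-YAs, with a log2FC of 0.17 and -0.48, and EPHA1 and EPHA3 stayed between 1.24 and 3.71 CPM in all libraries.

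Among the 4 tested EphB receptors, EPHB2 and EPHB6 were called, where 4.76% of all tested genes rose in NF-YAl and 5.44% in NF-YAs. EPHB2, a kinase known for sorting epithelial cells in the gut, was at 8.14, 7.71 and 6.97 CPM in Empty, 34.3, 22.6 and 20.0 CPM in NF-YAl, and 17.8, 13.4 and 18.3 CPM in NF-YAs. The 3 groups did not overlap. Its log2FC was 1.75 for NF-YAl (SE 0.20, adjusted p = 5.49e-05) and 1.12 for NF-YAs (SE 0.20, adjusted p = 0.00107). EPHB6, whose kinase domain is inactive, was at 72.0, 91.0 and 72.3 CPM in Empty, 75.2, 83.2 and 65.7 CPM in NF-YAl, and 160, 175 and 173 CPM in NF-YAs. NF-YAl overlapped Empty, and NF-YAs lay above both. The log2FC of EPHB6 was 1.11 for NF-YAs (SE 0.12, adjusted p = 2.83e-05) and -0.07 for NF-YAl (SE 0.12, adjusted p = 0.70). EPHB3, at 88.8 to 136 CPM in Empty, 59.4 to 80.8 CPM in NF-YAl and 62.0 to 65.6 CPM in NF-YAs, passed the p threshold in NF-YAs with a log2FC of -0.75 (SE 0.16, adjusted p = 0.00316), short of the fold limit. EPHB4, the receptor of ephrin-B2 in the vasculature, was at 180 to 210 CPM in Empty, 186 to 232 CPM in NF-YAl and 195 to 216 CPM in NF-YAs, with a log2FC of 0.16 and 0.11 (SE 0.11 in both).

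Of the 4 tested ephrin-A ligands, 2 fell in NF-YAs, 0 were called in NF-YAl and 0 rose in either line, where 3.90% of all tested genes fell in NF-YAs. EFNA1, the main ligand of EPHA2, was at 20.6, 25.4 and 27.4 CPM in Empty, 23.1, 22.8 and 18.7 CPM in NF-YAl, and 11.7, 10.8 and 10.4 CPM in NF-YAs. The NF-YAs libraries lay below all others, while NF-YAl overlapped Empty. Its log2FC was -1.15 for NF-YAs (SE 0.14, adjusted p = 6.02e-05) and -0.19 for NF-YAl (SE 0.13, adjusted p = 0.318). EFNA3 was at 9.77, 12.8 and 13.1 CPM in Empty, 8.91, 9.24 and 8.54 CPM in NF-YAl, and 6.68, 5.03 and 4.75 CPM in NF-YAs, in fully separate groups. It was called in NF-YAs (log2FC -1.12, SE 0.17, adjusted p = 0.000357) and not in NF-YAl (log2FC -0.42, adjusted p = 0.0728). EFNA4 was at 12.1 to 14.3 CPM in Empty, 11.6 to 13.5 CPM in NF-YAl and 6.27 to 9.43 CPM in NF-YAs, with a log2FC of -0.75 for NF-YAs (SE 0.16, adjusted p = 0.00321) and -0.03 for NF-YAl. EFNA5 was at 8.51 to 18.4 CPM over all libraries, with a log2FC of -0.18 for NF-YAs and 0.38 for NF-YAl. EFNA4, EFNA3 and EFNA1 lie close together on the plus strand of chromosome 1 (GRCh37), where EFNA4 starts at 155036213 and EFNA1 ends at 155107375. EFNA5 lies on chromosome 5.

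All 3 ephrin-B ligands were called in NF-YAs, EFNB1 as lower and EFNB2 and EFNB3 as higher. Among all tested genes, 5.44% rose and 3.90% fell in NF-YAs. EFNB1 was at 245, 277 and 246 CPM in Empty, 73.3, 109 and 126 CPM in NF-YAl, and 124, 114 and 120 CPM in NF-YAs. Every NF-YA library was below the lowest Empty library. The log2FC was -1.31 for NF-YAl (SE 0.16, adjusted p = 7.63e-05) and -1.10 for NF-YAs (SE 0.16, adjusted p = 0.000221). EFNB3, a ligand best known from the midline of the spinal cord, was at 6.33, 7.31 and 5.12 CPM in Empty, 20.6, 22.1 and 17.7 CPM in NF-YAl, and 18.9, 20.5 and 18.4 CPM in NF-YAs. Both lines lay well above Empty and overlapped each other. Its log2FC was 1.69 (SE 0.15, adjusted p = 9.18e-06) and 1.62 (SE 0.15, adjusted p = 1.02e-05). EFNB2, the arterial ephrin, was at 7.17, 8.23 and 6.49 CPM in Empty, 10.5, 12.1 and 13.8 CPM in NF-YAl, and 14.3, 13.6 and 16.3 CPM in NF-YAs. NF-YAl and NF-YAs both lay above Empty. It was called in NF-YAs (log2FC 1.01, SE 0.15, adjusted p = 0.000275), and in NF-YAl its log2FC of 0.73 (SE 0.15, adjusted p = 0.0028) was under the fold limit. The NF-YAs call rested on the margin of that limit, with a log2FC of 0.93 without Empty library C and 0.93 without NF-YAs library C. Because EFNB1 was the most abundant of the 3 in TPM, the summed ephrin-B level was 94.5 ± 13.7 TPM in Empty and 59.6 ± 6.39 TPM in NF-YAs. In NF-YAl it was 61.1 ± 30.5 TPM, overlapping Empty through the 96.1 TPM of library D, whose TPM were raised throughout.

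Of the netrins, only the membrane-anchored NTNG1 was called. This netrin-G binds LRRC4C and not DCC or UNC5. NTNG1 was at 5.62, 3.30 and 4.68 CPM in Empty, 16.4, 11.0 and 8.59 CPM in NF-YAl, and 12.8, 8.41 and 13.9 CPM in NF-YAs. Both lines lay above Empty with a wide spread. The log2FC was 1.40 for NF-YAl (SE 0.27, adjusted p = 0.00211) and 1.37 for NF-YAs (SE 0.27, adjusted p = 0.00217). Leaving out Empty library B or C, or for NF-YAs library A or C of that line, gave an adjusted p of 0.0102 to 0.0130 and lost the call. Its relative NTNG2 was at 6.06 to 8.34 CPM in Empty, 7.43 to 14.9 CPM in NF-YAl and 12.4 to 14.8 CPM in NF-YAs, with a log2FC of 0.72 (adjusted p = 0.0288) and 0.96 (adjusted p = 0.00577). NTN4, the abundant secreted netrin, was at 221, 225 and 236 CPM in Empty, 222, 173 and 173 CPM in NF-YAl, and 140, 109 and 131 CPM in NF-YAs. NF-YAs was lowest, with a log2FC of -0.85 (SE 0.12, adjusted p = 0.000245) that did not reach the fold limit. NTN1 and NTN3 were at 0.616 to 3.09 CPM and not called.

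Of the netrin receptors, UNC5C was called in NF-YAs. It was at 5.37, 5.96 and 5.63 CPM in Empty, 9.12, 7.48 and 3.98 CPM in NF-YAl, and 8.73, 13.3 and 13.7 CPM in NF-YAs. NF-YAl libraries lay on both sides of the Empty range. The log2FC was 1.08 for NF-YAs (SE 0.26, adjusted p = 0.00711) and 0.27 for NF-YAl (SE 0.27, adjusted p = 0.478). Leaving out any Empty library, or NF-YAs library B or C, lost the call, with a log2FC of 0.96 to 1.12 and an adjusted p of 0.0222 to 0.0352. DCC was at 19, 5 and 10 counts in Empty, 26, 28 and 35 counts in NF-YAl, and 12, 15 and 17 counts in NF-YAs. Its log2FC in NF-YAl was 1.51 (SE 0.40, adjusted p = 0.0121), which missed the threshold, whereas the adjusted p was 0.00289 without Empty library A. UNC5A and UNC5D, both under 1 TPM in every library, were at 0.159 to 1.56 and 0.265 to 2.74 CPM and not called.

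SLIT1 and SLIT2 moved in opposite directions at very different levels. SLIT2, the prevailing slit here, was at 232, 258 and 234 CPM in Empty, 138, 169 and 148 CPM in NF-YAl, and 107, 89.3 and 113 CPM in NF-YAs. The 3 groups were separate, with NF-YAs the lowest. It was called in NF-YAs (log2FC -1.23, SE 0.11, adjusted p = 1.02e-05), and its log2FC of -0.67 for NF-YAl (SE 0.11, adjusted p = 0.000785) was within the fold limit. SLIT1 was at 1.09, 0.834 and 0.551 CPM in Empty, 1.75, 1.76 and 2.01 CPM in NF-YAl, and 5.06, 5.13 and 4.56 CPM in NF-YAs, which are 14 to 26, 33 to 49 and 94 to 103 counts. Again the groups were separate, with NF-YAs the highest. The log2FC was 2.57 for NF-YAs (SE 0.25, adjusted p = 1.52e-05) and 1.16 for NF-YAl (SE 0.26, adjusted p = 0.00535). The NF-YAl call was lost without Empty library B or C or NF-YAl library B or D, with an adjusted p of 0.0109 to 0.0262, in a fit of these 2 groups only (adjusted p = 0.0219) and in a fit with the replicate letter as a block (log2FC 0.99, adjusted p = 0.0219). With limma on log2(TPM + 0.5) its log2FC was 0.43 (adjusted p = 0.14). The block fit gives NF-YAl library D no weight in this comparison, since no other library has its letter. SLIT1 overlaps the readthrough gene ARHGAP19-SLIT1 on the same strand, which had 0, 0 and 5 counts in Empty, 0, 7 and 5 counts in NF-YAl, and 32, 17 and 0 counts in NF-YAs, so a part of the reads may be split between them. SLIT3 was at 1.61 to 3.02 CPM and not called.

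Among all tested genes, 3.50% fell in NF-YAl and 3.90% in NF-YAs. Of the 20 tested receptors, ROBO2 alone was called lower than Empty. It was at 1.68, 3.02 and 1.77 CPM in Empty, 0.583, 0.613 and 0.411 CPM in NF-YAl, and 0.646, 0.299 and 0.507 CPM in NF-YAs, which are 40 to 76, 10 to 15 and 6 to 12 counts. All NF-YA libraries lay below Empty. The log2FC was -2.00 for NF-YAl (SE 0.35, adjusted p = 0.0011) and -2.15 for NF-YAs (SE 0.37, adjusted p = 0.000727). With limma on log2(TPM + 0.5), a scale that understates the change of low genes, both calls were lost at a log2FC of -0.42 (adjusted p = 0.0781) and -0.46 (adjusted p = 0.056). ROBO1, the receptor with most of the ROBO transcripts, was at 73.2, 84.0 and 70.0 CPM in Empty, 176, 129 and 96.6 CPM in NF-YAl, and 107, 121 and 122 CPM in NF-YAs. Both lines lay above Empty, with a log2FC of 0.82 (SE 0.17, adjusted p = 0.00358) and 0.63 (SE 0.17, adjusted p = 0.0147) that was under the fold limit. ROBO4, known from endothelium, was at 17.0 to 22.6 CPM in Empty, 21.0 to 43.4 CPM in NF-YAl and 33.3 to 39.8 CPM in NF-YAs, with a log2FC of 0.64 (adjusted p = 0.0351) and 0.87 (adjusted p = 0.00697). ROBO3, its neighbour on chromosome 11, was at 9.41 to 13.5 CPM over all libraries, with a log2FC of -0.31 and -0.16.

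**Figure D1:**
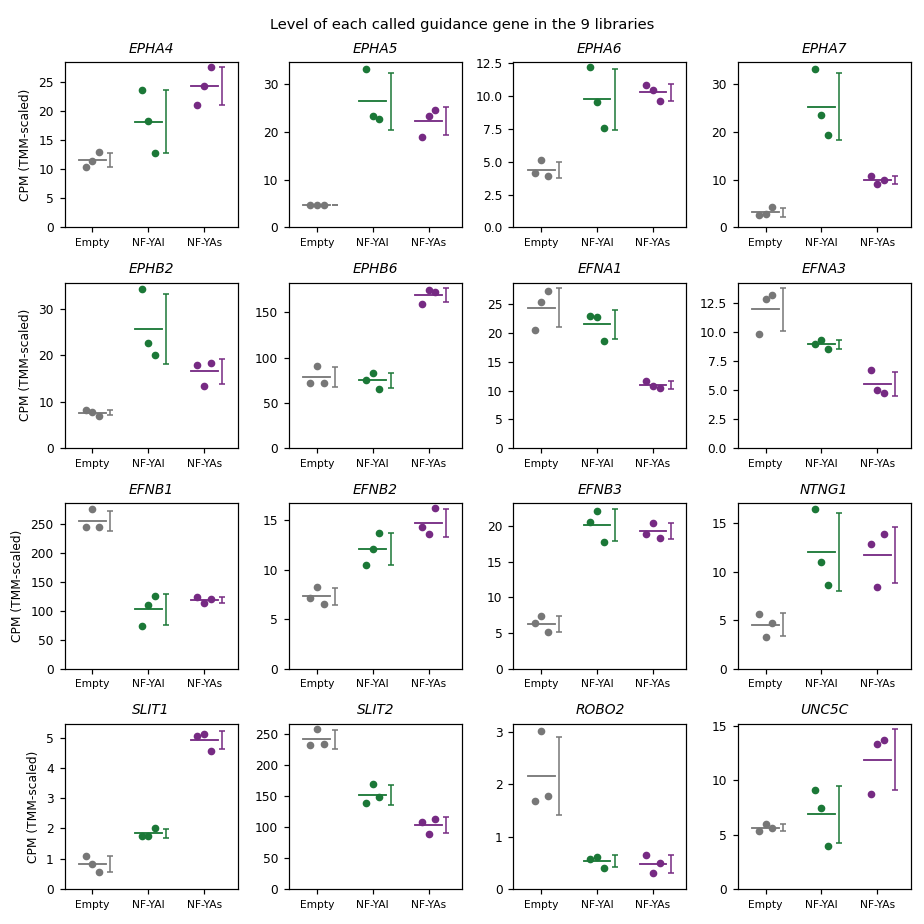
CPM of the 16 guidance genes called in at least 1 comparison, with 1 point per library, a line at the group mean and a bar of 1 SD (n = 3) beside it, and axes that start at 0. EPHA7, EPHB2, EFNA3, SLIT1 and SLIT2 show 3 separate groups, whereas EPHB6 and EFNA1 set NF-YAs apart from the other 2.

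Receptors and ligands were also compared within each library, by dividing the summed TPM of a receptor family by that of the ligand family grouped with it. This ratio does not depend on the raised TPM of NF-YAl library D. Over all members it was 1.18, 1.19 and 1.11 in Empty, 1.45, 1.62 and 1.55 in the NF-YAl libraries and 2.27, 2.86 and 2.48 in the NF-YAs libraries. The 3 groups did not overlap, and NF-YAs was highest. A few abundant genes carry much of this ratio. In Empty, EPHA2 was at 148 of 296 receptor TPM, and EFNB1, NTN4 and SLIT2 were at 90.3, 77.3 and 34.3 of 255 ligand TPM. The ratio of ROBO to slit transcripts was 0.655, 0.587 and 0.628 in Empty, 2.15, 1.32 and 1.11 in the NF-YAl libraries and 1.82, 2.50 and 2.01 in the NF-YAs libraries. Slit TPM thus exceeded ROBO TPM in Empty, and the reverse held in every library of both NF-YA lines. In summed CPM, which do not account for length, the ratio was 0.445 to 0.469 in Empty. It was 0.837 to 1.62 in the NF-YAl libraries and 1.31 to 1.78 in the NF-YAs libraries. On that scale the reverse did not hold in every NF-YAl library. The ratio of EphB to ephrin-B transcripts was 1.06 to 1.21 in Empty, 1.63 to 3.03 in the NF-YAl libraries and 2.24 to 2.58 in the NF-YAs libraries. The EphA to ephrin-A ratio was 3.49 to 4.32 in Empty, 2.65 to 4.47 in the NF-YAl libraries and 7.28 to 9.83 in the NF-YAs libraries. NF-YAl overlapped Empty in this ratio, which EPHA2 dominates. Without EPHA2, a split chosen after its level was seen, the EphA to ephrin-A ratio was 0.357 to 0.546, 0.721 to 0.989 and 1.04 to 1.33. In Empty, EPHA10 (10.9 TPM) and EPHA6 (3.37 TPM) were the largest terms of that receptor sum of 19.1 TPM. There 94.6% and 86.4% of their TPM came from transcripts of 2069 and 1281 nt. Whether these transcripts encode whole receptors was not tested. DCC and UNC5 transcripts were scarce, at 0.0132 to 0.0145 of the netrins in Empty. They were at 0.0152 to 0.0209 in the NF-YAl libraries and 0.0337 to 0.0508 in the NF-YAs libraries. NTN4 made up most of the denominator, which also held NTNG1 and NTNG2 (0.847 and 2.75 TPM in Empty). As said above, NTNG1 does not bind DCC or UNC5. These ratios are given as a description, since 3 against 3 libraries cannot go below p = 0.1 in an exact permutation test.

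**Figure D2:**
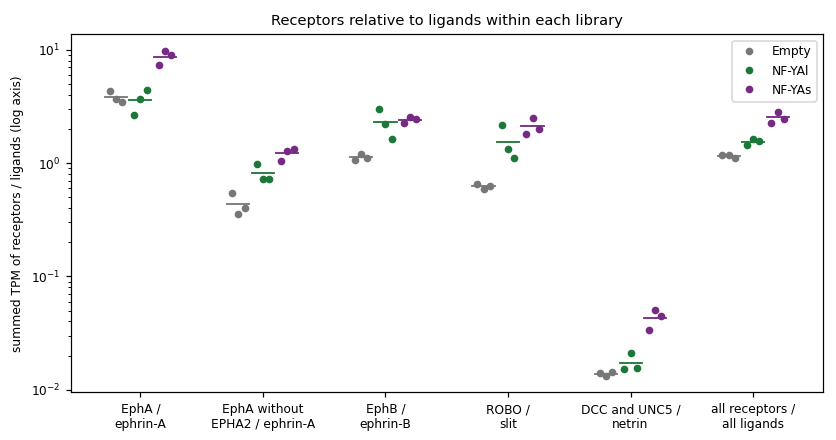
Summed TPM of receptors divided by summed TPM of the ligand family grouped with them within each library, on a log axis, with 1 point per library and a line at the group mean. In the ratio over all genes the NF-YAs libraries lie at 2.27 to 2.86, above NF-YAl at 1.45 to 1.62 and Empty at 1.11 to 1.19.

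The 2 NF-YA lines were then compared directly. EPHA7 was higher in NF-YAl than in NF-YAs (log2FC 1.35, SE 0.22, adjusted p = 0.00109), and EPHB6 and SLIT1 were lower (log2FC -1.18, SE 0.12, adjusted p = 5.65e-05, and log2FC -1.41, SE 0.23, adjusted p = 0.00138). That is 1 member up and 2 down, where 1.74% of all tested genes were up and 2.86% down. The median log2FC of the members was 0.05, beside 0.018 over all tested genes. For EPHA7 and SLIT1 both lines were above Empty and differed in extent, and for EPHB6 only NF-YAs was. EFNA1 came next at a log2FC of 0.97 (SE 0.14, adjusted p = 0.000577), under the fold limit. It passed the limit without NF-YAl library D (log2FC 1.06) and without NF-YAs library A (log2FC 1.01), which made 2 members up. EFNA4 (0.71), NTN4 (0.58) and SLIT2 (0.56) were also higher in NF-YAl at an adjusted p of 0.00439 to 0.00791 without reaching the limit. EFNA3 had a log2FC of 0.70 at an adjusted p of 0.0131. For EPHA5, EPHA6, EFNB3, NTNG1 and ROBO2, called in both lines, the difference between the lines was -0.08 to 0.24 on the log2 scale with an SE of 0.14 to 0.42, and no such difference passed the threshold. EPHB2 differed by 0.63 (SE 0.19, adjusted p = 0.0349) and EFNB1 by -0.21 (SE 0.16, adjusted p = 0.357).

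Partners of these genes were taken from 2 lists. The lists were chosen with earlier results of these data known, so their counts are a description only. Of 12 further ligands, receptors and binding proteins of the netrin and slit systems, 8 were tested, and 3 rose and 0 fell in each NF-YA line against Empty, where 4.76% and 5.44% of all tested genes rose and 3.50% and 3.90% fell. FLRT3, a membrane ligand of UNC5 receptors, rose in NF-YAl (log2FC 1.10, SE 0.20, adjusted p = 0.00123) and in NF-YAs (log2FC 1.51, SE 0.20, adjusted p = 0.000111). NELL2, a secreted ligand of ROBO3, was at 4.07, 9.02 and 3.66 CPM in Empty, 20.8, 45.4 and 31.0 CPM in NF-YAl, and 13.6, 14.3 and 15.0 CPM in NF-YAs. Both lines lay above Empty, at a log2FC of 2.54 (SE 0.33) and 1.35 (SE 0.33). LRRC4C, the ligand of NTNG1, rose in NF-YAl at a log2FC of 2.10 (SE 0.33, adjusted p = 0.000468) from 0.236 to 0.556 CPM in Empty to 1.49 to 1.80 CPM, and had a log2FC of 0.77 in NF-YAs (adjusted p = 0.121). NEO1, the neogenin receptor of netrins and RGM proteins, was at 3.06, 2.03 and 2.68 CPM in Empty, 2.71, 2.82 and 1.73 CPM in NF-YAl, and 10.9, 8.41 and 10.4 CPM in NF-YAs. NF-YAs stood above Empty by a log2FC of 1.93 (SE 0.23, adjusted p = 5.17e-05), and NEO1 was lower in NF-YAl than in NF-YAs (log2FC -2.03, SE 0.23, adjusted p = 0.000114). Of 16 adaptors and effectors that act below Eph, DCC and ROBO receptors, all tested, 1 rose and 0 fell in either line, a share near those of all tested genes. It was VAV3, a guanine nucleotide exchange factor, at a log2FC of 1.46 for NF-YAl (SE 0.19, adjusted p = 0.000121) and 1.57 for NF-YAs (SE 0.19, adjusted p = 5.92e-05). TIAM1 and NGEF were lower in both lines and passed the p threshold, short of the fold limit. The log2FC of TIAM1 was -0.93 for NF-YAl (adjusted p = 2.86e-05) and -0.61 for NF-YAs (adjusted p = 0.000444). That of NGEF was -0.73 (adjusted p = 0.000297) and -0.80 (adjusted p = 0.000131). ABL2 was lower in this way in NF-YAl only (log2FC -0.44, adjusted p = 0.00489). The median log2FC of the adaptors was -0.04 and -0.10.

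As guidance genes are also expressed by neurons and endothelium, markers of these cells were read in the same libraries. The 7 neuronal markers summed to 132 to 157 TPM in Empty, 65.9 to 106 in the NF-YAl libraries and 128 to 172 in the NF-YAs libraries, led by NEFL, while RBFOX3, SNAP25, STMN2, ELAVL4 and DCX had a mean under 1 TPM in every group. The 6 endothelial markers summed to 8.34 to 10.1 TPM in Empty, 81.6 to 152 in the NF-YAl libraries and 40.0 to 59.1 in the NF-YAs libraries. The highest of them was KDR, which encodes a VEGF receptor and rose at a log2FC of 4.01 (SE 0.27) and 2.94 (SE 0.26), whereas CDH5, TEK, TIE1 and VWF were under 1 TPM in every group. PECAM1 fell in NF-YAs and VWF in NF-YAl, and of the neuronal markers NEFL fell in NF-YAl and SYT1 rose in NF-YAs. Of the epithelial markers, EPCAM rose and KRT8 fell in NF-YAl, and EPCAM rose and CDH1 and CLDN7 fell in NF-YAs. The part of these shifts in the changes of the guidance genes was not tested.

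Transcript shares, the percent of a gene's TPM that RSEM assigned to each RefSeq transcript, could be compared for 11 members with at least 2 transcripts and at least 1 TPM in every library. The share of the leading transcript did not overlap between groups in 2 of 11 for NF-YAl against Empty (EPHA2 and EPHA6), in 3 of 11 for NF-YAs against Empty (EPHA2, EPHA10 and ROBO1) and in 3 of 11 between the lines (EPHA6, EPHA10 and ROBO1), against 15.0%, 19.1% and 14.6% of 7666 genes. With a minimum of 5 TPM these were 1, 3 and 2 of 8 members, against 15.6%, 20.7% and 15.5% of 5665 genes. The leading ROBO1 transcript of 7494 nt took 66.0, 75.8 and 68.7% in Empty, 67.0, 71.6 and 73.7% in the NF-YAl libraries and 49.4, 58.5 and 54.2% in the NF-YAs libraries. NF-YAs lay below all other libraries. The 7329-nt transcript took 10.1 to 16.3% in Empty, 5.22 to 11.7% in the NF-YAl libraries and 19.3 to 27.9% in the NF-YAs libraries. The 6839-nt transcript took 14.17 to 17.74% in Empty, 21.07 to 21.84% in the NF-YAl libraries and 22.15 to 23.38% in the NF-YAs libraries. It was thus higher in both lines than in Empty, and no groups overlapped. EPHA6 came mostly from a short 1281-nt transcript, which took 87.6, 83.4 and 88.2% in Empty, 75.7, 66.1 and 80.7% in the NF-YAl libraries and 88.5, 83.4 and 89.0% in the NF-YAs libraries, with NF-YAl the lowest. In EPHA2 the 3918-nt transcript took 22.0 ± 2.50% in Empty, 15.4 ± 2.72% in the NF-YAl libraries and 14.8 ± 1.27% in the NF-YAs libraries (SD, n = 3). Each of these differences without overlap had p = 0.1 in a two-sided exact permutation test, the smallest that 3 against 3 libraries allow, and the smallest adjusted p over the 75 tests was 0.357.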

How the data were processed

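RNA-seq of PC3 MTSs was read from 9 libraries, 3 per group, with groups and replicate letters taken from the sample labels. The authors prepared libraries with a stranded total RNA kit, aligned reads to human RefSeq transcripts of GRCh37 (hg19) with bowtie2 within RSEM, and deposited expected counts, TPM and FPKM per gene and transcript and, per transcript, the percent of the gene's TPM. The deposited expected counts are estimates that were not normalized, and the deposited TPM are scaled by RSEM to a common total with a correction for effective length. The deposited FPKM were not used. The deposited percent values were used as the authors gave them. The strand setting in counting is not given in the sources used here, so reads of overlapping genes on opposite strands, such as EPHA5 and EPHA5-AS1 (4 to 33 counts), may not be told apart.

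Expected counts were rounded and fitted with edgeR 4.0.16 in R 4.3.3 (filterByExpr, TMM, 3 groups together, quasi-likelihood F test, Benjamini-Hochberg adjustment over 17108 genes), with the thresholds of the study's methods. SEs are |log2FC| over the square root of F. The procedure was tested on simulated data for NF-YAl against Empty, where edgeR recovered 200 of 200 changed genes among 16993 with 0 false calls. The simulation gave all genes the same dispersion and changed only well-counted genes, by a log2FC well beyond the limit. It therefore does not test calls of low genes or calls near the fold limit. Replicate libraries differed by more than counting noise (chi-square per gene of 6.24 to 90.8). P-values measure the spread between the 3 independent experiments of 1 line each. Transcript shares were tested with scipy 1.17.1. The alternatives were DESeq2 1.42.0, relative log expression scaling, other count filters, a fit of 2 groups, the replicate block, an effective-length offset, limma 3.58.1 on log2(TPM + 0.5), other thresholds, leaving out each library, a minimum of 5 TPM for shares, summed CPM for ratios, and only the bases before the start for CCAAT.

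The members, partner lists and marker lists were chosen with earlier results of these data known. Members called in at least 1 comparison are given with every library's value, other members by range, and called genes of the partner lists are named. Some marker genes are not reported here. Windows were searched for CCAAT and ATTGG. Gene positions are from GENCODE (GRCh37) and promoter windows from RefSeq (GRCh38.p14).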

Additional observations from a re-analysis of the deposited data

Results flagged for a closer look

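3 guidance genes changed by a different amount in the 2 NF-YA lines, in a direct test of the difference, where 1.74% of all tested genes were higher and 2.86% lower in NF-YAl than in NF-YAs. EPHA7 was higher in NF-YAl by a log2FC of 1.35, with 19.3 to 33.1 CPM in NF-YAl and 9.06 to 10.8 CPM in NF-YAs. EPHB6 differed by a log2FC of -1.18 (negative means higher in NF-YAs), with 65.7 to 83.2 CPM in NF-YAl and 160 to 175 CPM in NF-YAs. For SLIT1 the log2FC was -1.41, with 1.75 to 2.01 CPM in NF-YAl and 4.56 to 5.13 CPM in NF-YAs, and reads may be split between it and the overlapping ARHGAP19-SLIT1. With limma on log2(TPM + 0.5) the calls of EPHB6 (log2FC -1.05, adjusted p = 0.012) and SLIT1 (log2FC -0.63, adjusted p = 0.0359) were lost. Groups of 3 libraries are too small to test for outlying samples.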

How the results depend on the processing

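Of the 28 calls on single members over the 3 comparisons, none changed sign under any alternative. They kept direction and call in 149 of 168 fits that left out 1 library and in 262 of 278 other fits. The latter include 28 at an adjusted p under 0.05 and 28 with no limit on the fold change. Such looser thresholds could not lose a call. Of the 16 calls lost in the other fits, 13 were lost with limma on log2(TPM + 0.5). The cause was not tested. That scale moved the median log2FC of all genes to 0.25 in NF-YAl, 0.15 in NF-YAs and 0.11 between the lines. With it, 0 members fell in NF-YAl, 1 fell in NF-YAs and 0 were lower in NF-YAl than in NF-YAs, in place of 2, 5 and 2, while over all 17108 genes the calls down were 228, 288 and 246 in place of 599, 667 and 490. A filter of at least 10 counts in every library removed ROBO2 and left 1 member down in NF-YAl. With no limit on the fold change, 8 members fell in NF-YAs and 5 were higher in NF-YAl than in NF-YAs. Leaving out 1 library in turn gave 5 to 8 members up and 2 down in NF-YAl, 7 to 10 up and 5 down in NF-YAs, and 1 to 2 up and 2 down between the lines. DESeq2 kept all 28 calls, as did relative log expression scaling and no filter. DCC was also called up in NF-YAl by DESeq2 (adjusted p = 0.00818) and without a filter (adjusted p = 0.00973), and UNC5A was called lower in NF-YAl than in NF-YAs by DESeq2 (adjusted p = 0.00656).

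Samples with the same letter deviated together only weakly on average, with a mean correlation of residuals of 0.130 against -0.0449 for different letters. Same-letter values ran from -0.0732 for NF-YAl and NF-YAs A and -0.00138 for Empty and NF-YAs B to 0.343 for Empty and NF-YAl B. The labels do not say whether a letter marks a shared experiment, and the letters were not taken as pairs. The replicate block gave 7 members up and 2 down in NF-YAl, with ROBO1 gained and SLIT1 lost, 11 up and 5 down in NF-YAs, and 2 up and 2 down between the lines, EFNA1 being gained (log2FC 1.09). Not every library correlated best with its own letter. With summed CPM in place of TPM the ratio of all receptors to all ligands was 1.29 ± 0.0397 in Empty, 1.86 ± 0.0608 in the NF-YAl libraries and 2.88 ± 0.346 in the NF-YAs libraries (SD, n = 3), again without overlap. Counting only bases before the start, 43.8% of members, as over the whole window, and 10102 of 27305 genes held a CCAAT box. Depth limits the lowest members, with 6 to 76 counts per library in ROBO2, 5 to 35 in DCC and 3 to 31 in UNC5A.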
